A study of Mus musculus with 2 samples.

Results

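Secreted and membrane proteins enter the endoplasmic reticulum (ER) through a set of machines that act in a fixed order, and 40 genes of these machines were compared between GMPs of mice without and with a mammary tumor. The genes were chosen by symbol for what they encode, in 6 groups: the signal recognition particle (SRP) and its receptor, the SEC61 channel with its partners, signal peptidase, oligosaccharyltransferase (OST), the glucosidases with UGGT1, and the receptors that carry cargo between ER and Golgi. Earlier results of these data were known when the genes were chosen. All 40 symbols were found among the 24421 symbols measured, and all 40 were among the 10378 genes with a mean of at least 1 RPKM, the genes called tested here. RPKM are reads per kilobase of gene, scaled to the size of the library.

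GMPs are the BM progenitors of granulocytes and monocytes. NTB-GMP was 1 bulk RNA-seq library of GMPs from female non-tumor-bearing mice, and 4T1-GMP was 1 library of GMPs from female mice with an orthotopic 4T1 tumor, a mouse mammary carcinoma cell line. Both groups had an F1 background (H-2b/d), with the GMPs isolated by flow cytometry and the gate used for these libraries is not given in the sources used here. The labels give neither age, time after implantation nor the number of mice behind a library. With 1 library a group there was no replicate error and no test of the tumor's effect, and every interval given is a 95% Clopper-Pearson or exact conditional interval on reads that covers counting error only.

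The pathway begins when SRP binds the signal sequence of a nascent protein as it leaves the ribosome and brings the ribosome to the SRP receptor on the ER. The chain then passes through the SEC61 channel, signal peptidase removes the signal sequence, and OST transfers a preassembled glycan to asparagine residues. Glucosidases trim the glycan while the protein folds, UGGT1 marks misfolded glycoproteins for another round of folding, and cargo receptors sort finished proteins toward the Golgi while KDEL receptors return escaped ER residents. GMPs depend on this route to make granule enzymes such as myeloperoxidase and neutrophil elastase, which are N-glycosylated.

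RNA of these genes was higher in 4T1-GMP in 39 of the 40, with Sec63 as the exception. Each log2 ratio given is that of RPKM + 0.1 in 4T1-GMP to RPKM + 0.1 in NTB-GMP, and the added 0.1 shrinks the ratio of genes with few reads. The median log2 ratio of the 40 genes was 0.50, with the middle 50% between 0.33 and 0.63, against a median of 0.05 and a middle 50% from -0.26 to 0.32 over all tested genes. Of the 40 genes, 97.5% were higher in 4T1-GMP by any amount, beside 54.7% of all tested genes. A total of 12 genes were higher by 1.5 times or more, the fold used for a call, which is 30% of the 40 beside 9.8% of all tested genes. This excess depended on the scaling of the libraries: after quantile normalization, which gives both libraries the same distribution of values, 2 of the 40 genes (5%), Kdelr2 and Surf4, were higher by 1.5 times or more, beside 9.48% of all tested genes, although 37 of the 40 were higher by some amount, beside 50.5%. At a log2 ratio of 0.32 or more there were 31 of the 40 genes, beside 25.2% of all tested genes. The number lower by 1.5 times or more was 0, beside 11.6% of all tested genes. The interval on the reads lay above 0 for 39 genes, beside 36.3% of all tested genes. It narrows as reads increase, and it lay above 0 for 2074 of the 3812 tested genes within the range of the 40 genes' mean levels.

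The genes differed less among themselves than genes at large, with an SD of log2 ratios of 0.23 against 0.72 over all tested genes and 0.45 over the tested genes within the range of their mean levels. A total of 31 of the 40 were in the upper 25% of tested genes by log2 ratio and 13 in the upper 10%. Their summed level went from 3208 RPKM in NTB-GMP to 4578 RPKM in 4T1-GMP, a ratio of 1.43. As a share of all RPKM other than Rn45s, a measure that library size cannot move, they made up 0.831% in NTB-GMP and 1.07% in 4T1-GMP.

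**Figure D1:**
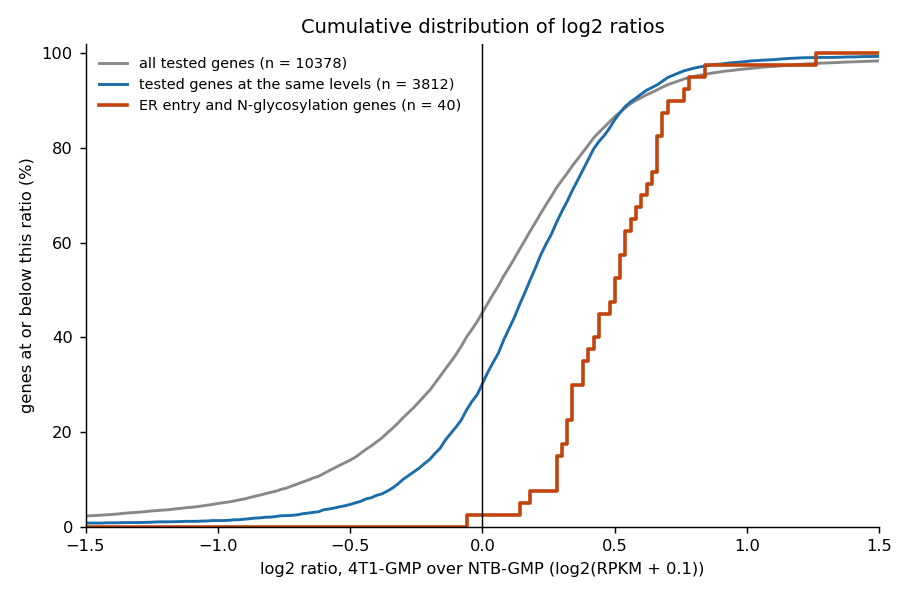
Cumulative share of genes (percent, vertical axis) at or below each log2 ratio of 4T1-GMP over NTB-GMP (horizontal axis), for all 10378 tested genes, the 3812 tested genes whose mean RPKM lay within the range of the 40 genes, and the 40 ER entry and N-glycosylation genes. The curve of the 40 genes starts near 0, at Sec63, and reaches its midpoint at 0.50, while the other curves reach theirs at 0.05 and 0.16.

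Several properties of the libraries moved with this difference. Reads of Rn45s, which encodes the precursor of ribosomal RNA, equaled 17.0% of the library size behind the RPKM in NTB-GMP against 6.98% in 4T1-GMP. When Rn45s is not counted toward either library, every log2 ratio falls by about 0.16, the median of all tested genes moves from 0.05 to -0.11, and that of the 40 genes from 0.50 to 0.33. On that scale 37 of the 40 genes were higher in 4T1-GMP, beside 39.2% of all tested genes, and 4 were higher by 1.5 times or more, beside 5.73%. Those 4 were Kdelr2, Surf4, Ostc and Ssr2, so that 0 genes of SRP and its receptor, of signal peptidase and of the glucosidases with UGGT1 passed 1.5-fold on it. For 34 genes the interval lay above 0 on this scale, beside 22.3% of all tested genes. The part of Rn45s in the difference was not tested. The 40 genes are well expressed, with mean levels from 17.1 to 211 RPKM. Among the 3812 tested genes within that range, 69.8% were higher by any amount and 9.26% by 1.5 times or more, and the median was 0.16. When Rn45s is not counted, 49.9% of these 3812 genes were higher.

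Transcript length moved with the ratio too, over all genes and among the 40. By the longest protein-coding transcript of GENCODE M21, which 93.4% of tested genes had, the median log2 ratio was 0.24 for tested genes under 1500 bases, 0.14 for those of 1500 to 3000 bases and -0.03 for longer ones. In the same order, the medians of the ER genes were 0.62 (12 genes), 0.46 (13 genes) and 0.39 (15 genes). The median of the ER genes was above that of tested genes in each class, and that of the short ones was the highest. Tested genes within the range of the 40 genes' mean levels had medians of 0.32, 0.22 and 0.07 in the same order. Single genes did not all follow length, as Kdelr2 and Surf4, the highest by ratio, had transcripts of 1829 and 3281 bases. Of the 12 short ER genes 7 were higher by 1.5 times or more, beside 17.1% of short tested genes, and of the 15 long ones 2, beside 7.27%. The part of transcript length in the difference was not tested.

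All 10 markers of GMPs were present in both libraries, 4 of them higher and 3 lower in 4T1-GMP by 1.5 times or more. The lower ones were Cd34 at 154 and 59.4 RPKM, the Fc gamma receptor gene Fcgr3 at 53.1 and 28.6 RPKM and Kit at 78.5 and 49.1 RPKM. The higher ones were Ms4a3 at 479 and 1220 RPKM, and 3 granule enzyme genes. These were Prtn3 at 1399 and 3311 RPKM, Ctsg at 1388 and 2998 RPKM and Elane at 1853 and 2935 RPKM. Mpo, Cebpe and Fcgr2b were higher by less than 1.5 times, with Mpo at 5162 RPKM in NTB-GMP against 5625 in 4T1-GMP. Markers of other stages and cell types differed between the libraries. Of 13 markers of late neutrophil granules 12 were higher in 4T1-GMP by 1.5 times or more, the exception being Padi4 at 2.60 and 2.85 RPKM, and the list summed to 517 RPKM in NTB-GMP against 4074 in 4T1-GMP. Of 8 tested monocyte and dendritic cell markers, 7 were lower by 1.5 times or more (summed level of the list 189 and 81.2 RPKM), as were 4 of 5 basophil and mast cell markers (426 and 183 RPKM), 4 of 5 stem and early progenitor markers (74.8 and 25.6 RPKM) and 3 of 3 erythroid and megakaryocyte markers (21.7 and 6.10 RPKM). The 9 markers of plasma cells, which are rich in ER, summed to 2.21 and 1.84 RPKM, with Mzb1 at 0 in both libraries and Jchain at 0.19 and 0.29 RPKM. Only 1 of them, Derl3, was a tested gene. It was higher in 4T1-GMP, at 0.81 and 1.35 RPKM (log2 ratio 0.67), with an interval from -0.22 to 1.82 that includes 0. Among 8 T, NK and B cell markers, Cd3g was at 0 in both libraries, and Nkg7, which myeloid progenitors can also express, stood at 190.3 and 337 RPKM of list sums of 191 and 337 RPKM. In bulk RNA, fewer cells of a type and less RNA per cell cannot be told apart, and the part of the mix of cells in the difference of the ER genes was not tested.

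**Figure D2:**
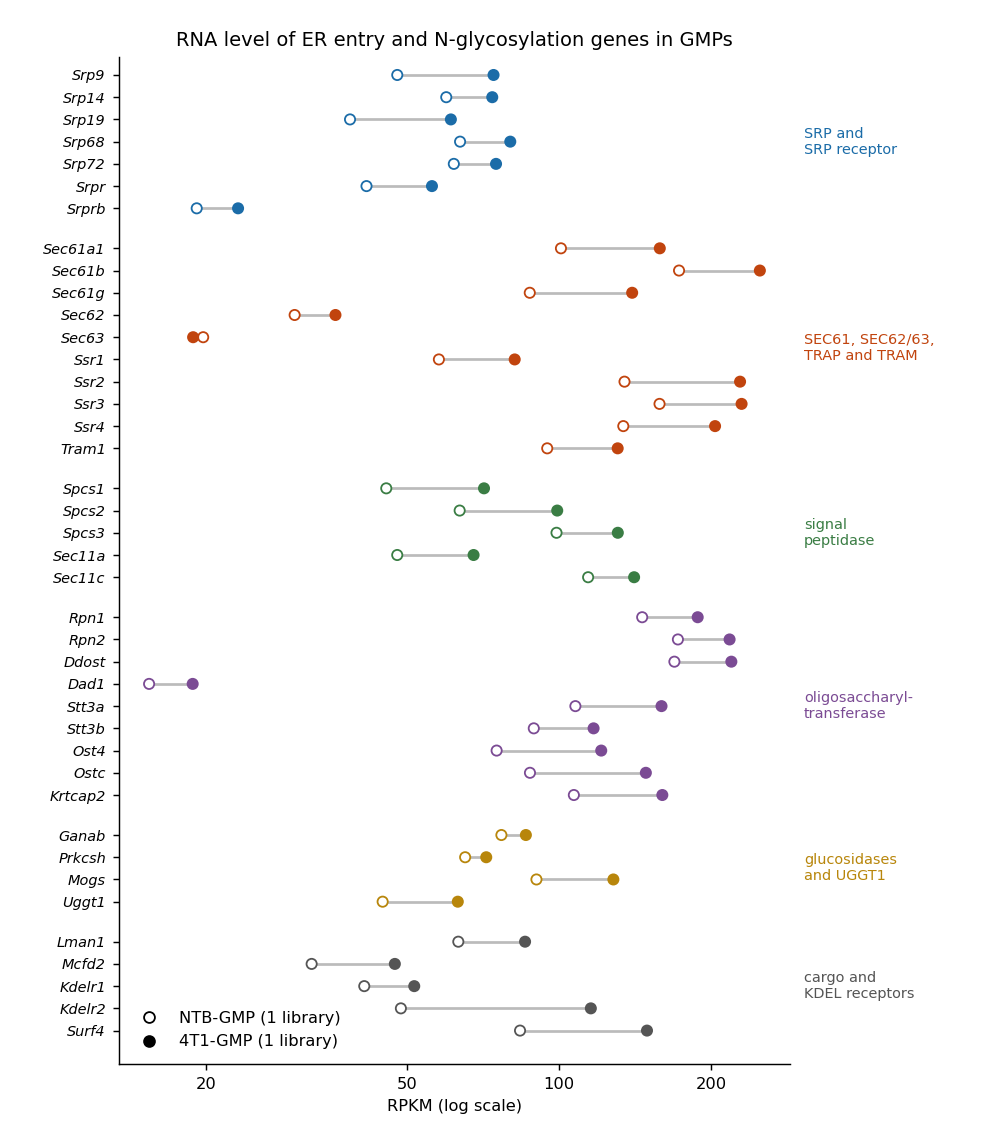
RNA level of the 40 genes in RPKM (horizontal axis, log scale), with 1 open circle for the NTB-GMP library and 1 filled circle for the 4T1-GMP library per gene, grouped by machine. Filled circles lie to the right of open ones in all genes except Sec63, and the widest gap is that of Kdelr2, from 48.6 to 116 RPKM.

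The SRP is an RNA with protein subunits that pauses translation and delivers the ribosome. Its 5 proteins measured here and the 2 receptor subunits were all higher in 4T1-GMP, beside 54.7% of all tested genes, with a median log2 ratio of 0.33. Of the 7, 2 were higher by 1.5 times or more (28.6%, beside 9.8% of all tested genes). Srp19, which helps the particle assemble on its RNA, had 38.6 RPKM in NTB-GMP against 61.1 in 4T1-GMP, a log2 ratio of 0.66 (interval 0.42 to 0.91). It had the fewest recovered reads of the 40 genes in NTB-GMP, at least 172 and likely more, and the widest interval, which is then too wide.

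Srp9 and Srp14 form the heterodimer that slows elongation, and their values differed. Srp9 went from 47.8 to 74.2 RPKM (log2 ratio 0.63, interval 0.51 to 0.76), whereas Srp14 went from 59.8 to 73.8 RPKM (0.30, interval 0.16 to 0.45). The levels of the pair were 74.2 and 73.8 RPKM in 4T1-GMP but 47.8 and 59.8 RPKM in NTB-GMP. The other heterodimer, Srp68 and Srp72, showed close values. Srp68 had 63.7 and 80.1 RPKM (log2 ratio 0.33, interval 0.25 to 0.41), and Srp72 had 61.9 and 75.04 RPKM (0.28, interval 0.21 to 0.35). The receptor has an alpha and a beta subunit. Srpr, the GTPase that docks SRP, had 41.6 and 56.0 RPKM (log2 ratio 0.43, interval 0.27 to 0.59), and Srprb, its membrane anchor, had 19.2 and 23.2 RPKM (0.27, interval 0.14 to 0.41).

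SEC61 is the channel, built from an alpha subunit that forms the pore and small beta and gamma subunits. The 3 subunits had close log2 ratios, from 0.53 to 0.67, and their summed level was 361 RPKM in NTB-GMP against 548 in 4T1-GMP. Sec61a1, the pore (ENSMUSG00000030082.14, chromosome 6, 88503579 to 88518905 of GRCm38, minus strand), went from 100.9 to 158 RPKM, a log2 ratio of 0.65 (interval 0.59 to 0.71). Sec61g had 87.5 and 139.5 RPKM (0.67, interval 0.55 to 0.79), and Sec61b, the highest of the 40 genes in both libraries, had 173 and 249.7 RPKM (0.53, interval 0.43 to 0.63). All 3 subunits were higher in 4T1-GMP by similar factors.

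SEC62 and SEC63 join SEC61 for substrates that need help to enter, and SEC63 recruits the chaperone BiP to the channel. They did not share the difference of the pore. Sec62 had 29.97 and 36.1 RPKM (log2 ratio 0.27, interval 0.18 to 0.36). Sec63 (ENSMUSG00000019802.13, chromosome 10, 42761496 to 42832514, plus strand) had 19.8 RPKM in NTB-GMP against 18.9 in 4T1-GMP, a log2 ratio of -0.07 with an interval from -0.16 to 0.03 that includes 0. It was the lowest of the 40 by log2 ratio, below the median of all tested genes.

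TRAP, the translocon-associated protein complex, sits beside the channel and helps chains with weak signal sequences to enter. Its 4 subunits were all higher, beside 54.7% of all tested genes, with a median log2 ratio of 0.57. Their summed level was 485 RPKM in NTB-GMP against 743 in 4T1-GMP. Ssr2, the beta subunit (ENSMUSG00000041355.13, chromosome 3, 88575876 to 88588419, plus strand), went from 135 to 228 RPKM, a log2 ratio of 0.76 (interval 0.68 to 0.84). Ssr4 had 134 and 204 RPKM (0.60, interval 0.51 to 0.70). The alpha and gamma subunits were nearer 0.5. Ssr3 had 158 and 229.8 RPKM (0.54, interval 0.49 to 0.59), and Ssr1 had 57.8 and 81.7 RPKM (0.50, interval 0.46 to 0.54). Tram1, a membrane protein next to the channel that contacts incoming chains, had 94.8 and 131 RPKM (0.46, interval 0.40 to 0.52).

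Signal peptidase is a membrane complex with a catalytic subunit, SEC11A or SEC11C, and the subunits SPCS1, SPCS2 and SPCS3. All 5 genes were higher in 4T1-GMP (median log2 ratio 0.50), beside 54.7% of all tested genes. The accessory subunits Spcs1 and Spcs2 passed 1.5-fold (40% of the 5, beside 9.8% of all tested genes). Both were at 0.48 when Rn45s was not counted, under 1.5-fold. Spcs1 had 45.5 and 71.0 RPKM (0.64, interval 0.50 to 0.79), and Spcs2 had 63.6 and 99.2 RPKM (0.64, interval 0.57 to 0.72). Spcs3 had 98.9 and 131 RPKM (0.40, interval 0.35 to 0.46). Of the alternative catalytic subunits, Sec11c was the more abundant in both libraries and the less different. Sec11c had 114 and 141 RPKM (0.30, interval 0.20 to 0.41), and Sec11a had 47.8 and 67.7 RPKM (0.50, interval 0.37 to 0.64).

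**Figure D3:**
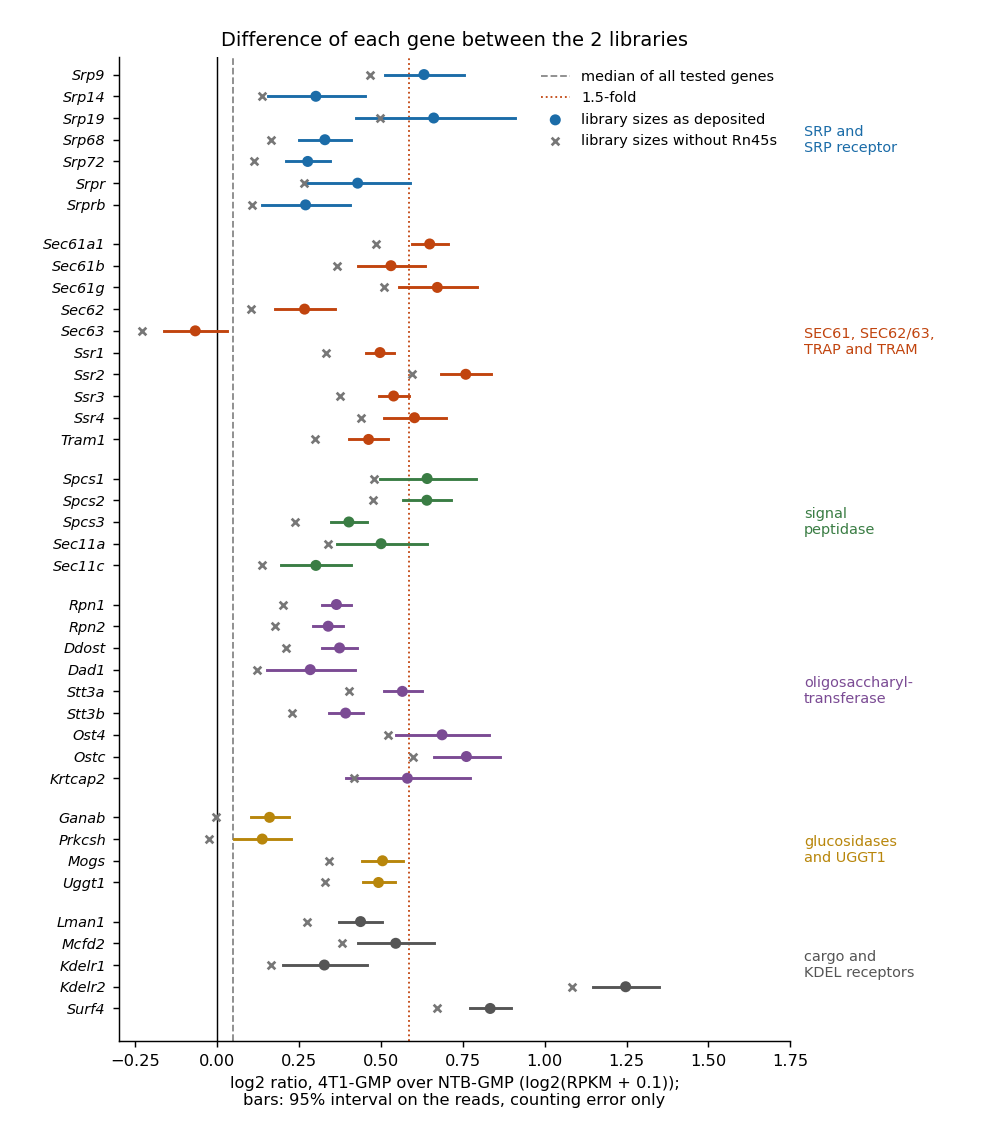
Log2 ratio of 4T1-GMP over NTB-GMP (horizontal axis, log2(RPKM + 0.1)) for each of the 40 genes, with bars for the 95% interval on the reads and crosses for the ratio when Rn45s is not counted. The dashed line is the median of all tested genes (0.05) and the dotted line marks 1.5-fold, which 12 points pass, Kdelr2 by the widest margin (1.247).

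OST exists as a complex with the catalytic subunit STT3A, which works beside the channel as the chain enters, and a complex with STT3B, which glycosylates sites that were skipped. RPN1, RPN2, DDOST, DAD1 and OST4 belong to both, whereas OSTC and KRTCAP2 join the STT3A complex to the channel. All 9 measured genes were higher in 4T1-GMP (median log2 ratio 0.39), beside 54.7% of all tested genes. Those of the STT3A complex stood above most of the shared ones. The summed level of the 3 STT3A complex genes was 302 RPKM in NTB-GMP against 468 in 4T1-GMP, a ratio of 1.55, and that of the 5 shared genes was 578 and 765 RPKM, a ratio of 1.32. Ostc (1067 bases), Krtcap2 (1172) and the shared Ost4 (1144) have short transcripts, whereas that of Stt3a has 5867 bases. The part of transcript length in this contrast was not tested.

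Ostc (ENSMUSG00000041084.8, chromosome 3, 130695912 to 130709444, minus strand) went from 87.6 to 149 RPKM, a log2 ratio of 0.76 (interval 0.66 to 0.86). Stt3a went from 108 to 159.5 RPKM (0.57, interval 0.51 to 0.62) and Krtcap2 from 107 to 160.1 RPKM (0.58, interval 0.39 to 0.77), both just under 1.5-fold. The 3 genes of the STT3A complex were thus between 0.57 and 0.76. Stt3b had 89.1 and 117 RPKM (0.39, interval 0.34 to 0.44). Its oxidoreductase partners, which are not among the 40 genes, were Magt1 with 42.7 and 56.4 RPKM (0.40, interval 0.33 to 0.47) and Tusc3 with 10.8 and 12.4 RPKM (0.21, interval -0.09 to 0.51). Genes of the STT3B complex were therefore between 0.21 and 0.40.

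The large shared subunits had nearly the same ratio. Rpn1 had 146 and 188 RPKM (log2 ratio 0.36, interval 0.32 to 0.41), Rpn2 had 172 and 218 RPKM (0.34, interval 0.29 to 0.39), and Ddost had 169 and 219 RPKM (0.37, interval 0.32 to 0.43). Ost4, a very small subunit that holds the catalytic subunit in the complex, stood apart with 75.2 and 121 RPKM (0.69, interval 0.55 to 0.83). Dad1, named for the cell death that follows its loss, was the lowest of the 40 genes in level at 15.4 and 18.8 RPKM (0.28, interval 0.15 to 0.42). Its RPKM were divided by a gene length of at least 3735 bases, beside 3916 bases of all its GENCODE M21 exons together, and a shorter length would give a higher level per length without a change in the ratio.

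Glucosidase I, encoded by Mogs, removes the outermost glucose of the transferred glycan, and glucosidase II, with the catalytic subunit Ganab and the regulatory subunit Prkcsh, removes the remaining glucoses. The 2 enzymes differed. Mogs went from 90.2 to 128 RPKM, a log2 ratio of 0.51 (interval 0.44 to 0.57). Ganab had 76.9 and 86.0 RPKM (0.16, interval 0.10 to 0.22), and Prkcsh had 65.2 and 71.8 RPKM (0.14, interval 0.05 to 0.23). The log2 ratios of both glucosidase II subunits turned negative, to -0.0028 for Ganab and -0.025 for Prkcsh, when Rn45s was not counted, so no direction can be given for this enzyme. Uggt1, the folding sensor, had 44.8 and 63.04 RPKM (0.49, interval 0.44 to 0.54), while its paralog Uggt2, not among the 40, was at 0.18 and 0.27 RPKM.

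KDEL receptors bind ER chaperones that reach the Golgi and return them. Kdelr2 (ENSMUSG00000079111.3, chromosome 5, 143403838 to 143421901, plus strand) went from 48.6 RPKM in NTB-GMP to 116 RPKM in 4T1-GMP, 2.38 times as high, with a log2 ratio of 1.247 (interval 1.15 to 1.35). Its ratio was the highest of the 40, above that of 97.9% of all tested genes, and it alone of the 40 passed 2-fold, as 3.25% of all tested genes did. Kdelr1 had 41.2 and 51.7 RPKM (0.33, interval 0.20 to 0.46), and Kdelr3, not among the 40, was at 0.07 and 0.38 RPKM. The pair was thus at like levels in NTB-GMP, whereas Kdelr2 was well above Kdelr1 in 4T1-GMP.

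SURF4 is a membrane receptor that loads many soluble proteins into vesicles leaving the ER. Surf4 (ENSMUSG00000014867.9, chromosome 2, 26920040 to 26933928, minus strand) went from 83.7 to 149 RPKM, a log2 ratio of 0.83 (interval 0.77 to 0.90), second to Kdelr2. Exons of Surf4 overlap those of Surf2, and the exons of Ost4, Spcs1 and Krtcap2 also overlap another gene, so that their reads are uncertain while the strand used in counting is not known. LMAN1, a lectin, and MCFD2 together carry certain glycoproteins to the Golgi. Lman1 had 63.2 and 85.7 RPKM (0.44, interval 0.37 to 0.50), and Mcfd2 had 32.4 and 47.3 RPKM (0.55, interval 0.43 to 0.66). All 5 cargo and KDEL receptor genes were above the upper quartile of tested genes. The interval lay wholly above 1.5-fold for 5 of the 40 genes, namely Kdelr2, Surf4, Ostc, Ssr2 and Sec61a1, and for 4.56% of all tested genes.

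The ratio of 2 genes within a library does not depend on library size, so its change between the libraries was taken for 16 pairs. These included 7 pairs set with the design and 9 pairs chosen after the values were seen. Such a ratio does not remove transcript length, with which the log2 ratio moved, where the 2 genes differ in length. The part of length in these changes was not tested. Kdelr1 over Kdelr2 changed most, from 0.846 in NTB-GMP to 0.447 in 4T1-GMP, a log2 change of -0.92 (interval -1.08 to -0.76). Stt3a over Stt3b went from 1.21 to 1.36 (0.17, interval 0.10 to 0.25), and Sec11a over Sec11c from 0.419 to 0.481 (0.20, interval 0.03 to 0.37). The intervals of these 3 pairs of paralogs excluded 0, without adjustment for the 16 pairs. That of Sec11a over Sec11c came near 0, and exons of Sec11a overlap those of Nmb on the same strand, so its reads are uncertain.

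Within TRAP, Ssr2 over Ssr1 went from 2.33 to 2.79 (log2 change 0.26, interval 0.17 to 0.35), and Ssr4 over Ssr1 from 2.32 to 2.49 (0.10, interval 0.00076 to 0.21). Ssr3 over Ssr1 changed by 0.04 (interval -0.02 to 0.10), and Rpn1 over Rpn2, the large OST subunits, by 0.03 (interval -0.04 to 0.09). The last 2 pairs kept their balance to within about 0.1 on the log2 scale, by their intervals. The longest transcripts of Ssr2, Ssr3 and Ssr4 have 1189, 2957 and 800 bases, against 9333 for Ssr1.

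Of the pairs chosen after the values were seen, 4 set a subunit or partner against the pore. Sec63 over Sec61a1 went from 0.196 to 0.119 (log2 change -0.72, interval -0.83 to -0.60), and Sec62 over Sec61a1 from 0.297 to 0.228 (-0.38, interval -0.49 to -0.27). Sec61g over Sec61a1 changed by 0.02 (interval -0.11 to 0.16) and Sec61b over Sec61a1 by -0.12 (interval -0.23 to -0.0016). Relative to the pore, SEC62 and SEC63 RNA was lower in 4T1-GMP, while the beta and gamma subunits of SEC61 differed from it by little. Ostc over Stt3a went from 0.813 to 0.931 (0.20, interval 0.08 to 0.31), and Ostc over Magt1 from 2.05 to 2.63 (0.36, interval 0.24 to 0.49). The intervals of Krtcap2 over Stt3a (0.02, -0.18 to 0.22), Lman1 over Mcfd2 (-0.11, -0.24 to 0.02) and Ganab over Prkcsh (0.02, -0.08 to 0.13) included 0.

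**Figure D4:**
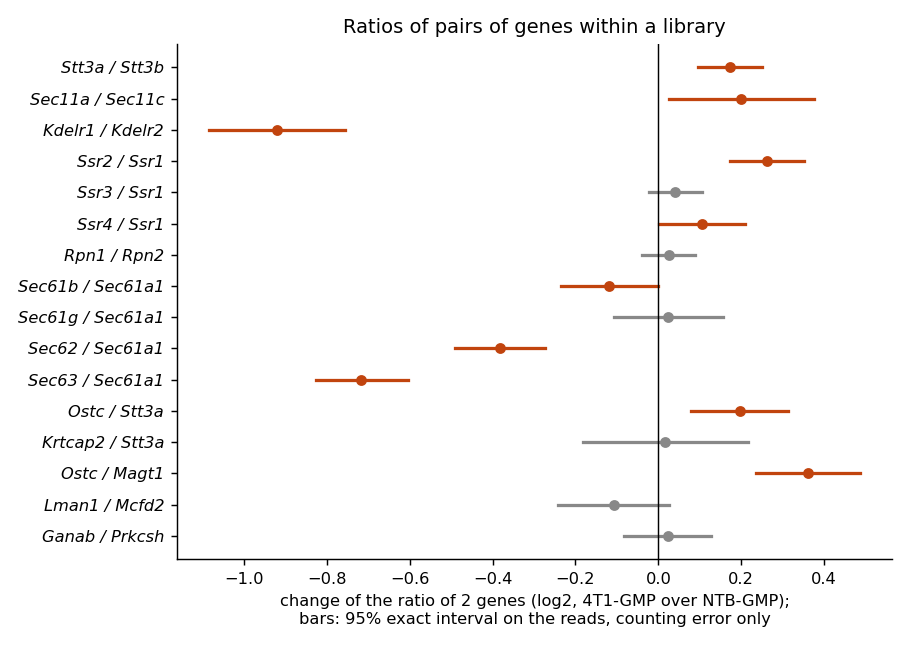
Change between the libraries (log2, horizontal axis) of the ratio of 2 genes within a library, for 16 pairs, with 95% exact intervals on the reads. Intervals in orange exclude 0, with Kdelr1 over Kdelr2 (-0.92) and Sec63 over Sec61a1 (-0.72) farthest from it, and intervals in grey include 0.

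Other steps of the pathway were described with lists of genes outside the 40, and the count of genes that stayed higher when Rn45s was not counted is given for each. Their counts stand beside 54.7% of all tested genes higher by any amount (39.2% without Rn45s), 9.8% higher and 11.6% lower by 1.5 times or more. Of the ER-to-Golgi transport genes (COPII and COPI coats and p24 proteins), 31 of 35 tested were higher, 5 of them by 1.5 times or more (14.3%) and 2 lower by as much, with a median log2 ratio of 0.40 (22 higher, median 0.24, without Rn45s). Sec24d, a COPII coat subunit that selects cargo, went from 16.4 to 34.7 RPKM (1.07, interval 0.96 to 1.202), Sar1b, the GTPase that starts the coat, from 17.2 to 31.6 RPKM (0.87, interval 0.67 to 1.09), and Tmed3 from 128 to 222 RPKM (0.79, interval 0.64 to 0.94). Sec24b, a paralog of Sec24d, was lower, at 14.3 and 8.18 RPKM (-0.80, interval -0.94 to -0.66). The direction thus differed between these paralogs.

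The ER membrane complex, which inserts membrane proteins, had 7 of 10 genes higher (median 0.38, and 7 with a median of 0.22 without Rn45s), with Mmgt1 at 0.61 and Emc9 at -3.65, from at least 35 reads in NTB-GMP to at least 6 in 4T1-GMP. Enzymes that assemble the dolichol-linked glycan for OST had 25 of 32 genes higher with a median of 0.26 (20 higher, median 0.09, without Rn45s), and 2 by 1.5 times or more (6.25%, below the share of all tested genes). Those were Gmppb, which makes GDP-mannose, with 12.1 and 21.9 RPKM (0.85, interval 0.65 to 1.07), and Alg6, a glucosyltransferase, with 5.30 and 9.03 RPKM (0.76, interval 0.43 to 1.12). The median of OST, which uses the product of this assembly, was 0.39.

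Among folding lectins, trimming enzymes and ER-associated degradation genes, 14 of 19 tested were higher (median 0.36, and 12 with a median of 0.19 without Rn45s), 3 by 1.5 times or more (15.8%) and 1 lower by as much. Ube2j1, a ubiquitin-conjugating enzyme of the ER membrane, had 17.2 and 28.0 RPKM (0.69, interval 0.48 to 0.92), and Erlec1, a lectin of degradation, had 9.96 and 5.93 RPKM (-0.74, interval -0.94 to -0.56). Other subunits of OST and partners of the channel had 11 of 16 genes higher (median 0.22, and 9 with a median of 0.06 without Rn45s), 3 of them by 1.5 times or more (18.8%), led by Dnajc3, a cochaperone of the ER, with 44.1 and 70.7 RPKM (0.68, interval 0.62 to 0.75), and by Srp54b, a copy of the SRP subunit that binds signal sequences, with 13.4 and 21.0 RPKM (0.64, interval 0.54 to 0.75). Values of Srp54b and its near-identical copy Srp54a (23.5 and 31.8 RPKM) are uncertain, because reads that fit both could be split or dropped.

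Golgi enzymes that process N-glycans after the ER had 14 of 19 genes higher with a median of 0.22 (12 higher, median 0.06, without Rn45s), 0 by 1.5 times or more and 1 lower by as much. That gene was Fut8, which adds the core fucose, at 93.6 RPKM in NTB-GMP against 61.1 in 4T1-GMP (-0.62, interval -0.67 to -0.56). The Golgi list as a whole summed to 488 and 515 RPKM, a ratio of 1.05, against 1.43 for the 40 ER genes and 1.13 for tested protein-coding genes. Fut8 had the highest level of the Golgi list in NTB-GMP, so its fall weighs on this sum.

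**Figure D5:**
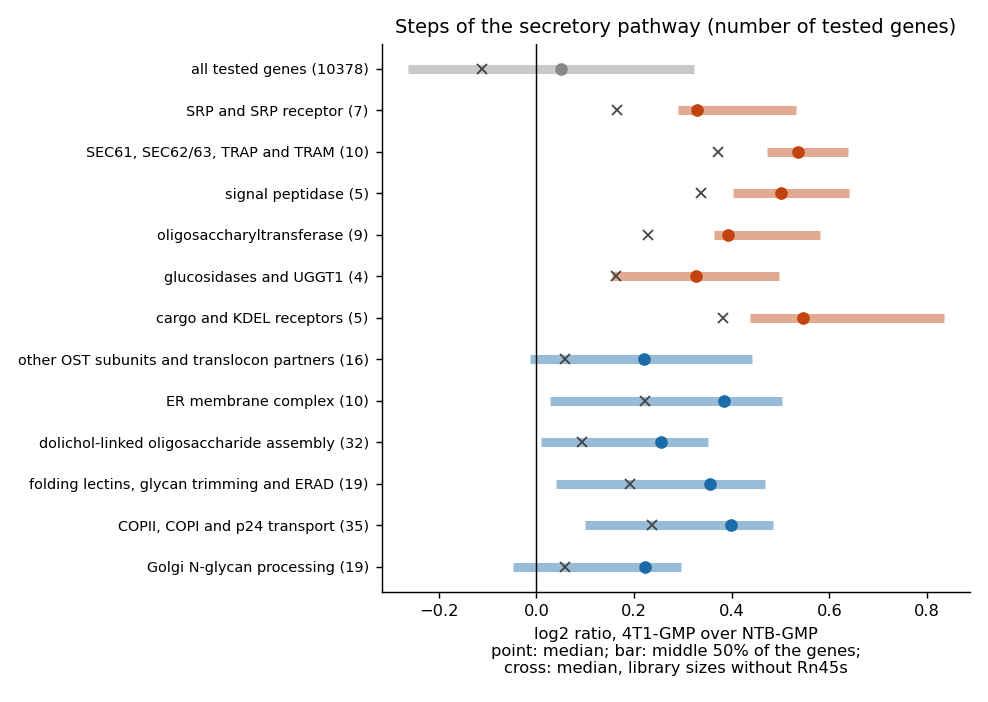
Median log2 ratio of 4T1-GMP over NTB-GMP (points), the middle 50% of genes (bars) and the median when Rn45s is not counted (crosses) for all tested genes, the 6 groups of the 40 genes (orange) and 6 other lists of the pathway (blue), with the number of tested genes in parentheses. The medians of the 6 orange groups lie between 0.33 and 0.55 and those of the blue lists between 0.22 and 0.40, beside 0.05 for all tested genes.

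Promoters were searched for 3 sequence elements of the unfolded protein response, the program that adjusts these machines when unfolded proteins build up in the ER. RefSeq windows of GRCm38.p6, from 250 bases before to 50 bases after a transcript start, were at hand for 30 of the 40 genes (32 windows). On either strand, the ER stress element (CCAAT, 9 free bases, CCACG) was in 0 of the 32 windows and in 0.119% of all 32851 windows. The ER stress element II (ATTGG, 1 free base, CCACG) was in 1 of the 32 and 0.0365% of all windows, and TGACGTG, the core of the unfolded protein response element, was in 2 of the 32 and 2.01% of all windows. The elements can share their CCACG. The matched windows are shown 5′ to 3′ in the direction of transcription, with the match in capitals, to let a reader see where in the promoter of a gene of the STT3A complex, of glucosidase I and of the SRP receptor the letters lie.

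Krtcap2, chr3:89246223-89246522, plus strand: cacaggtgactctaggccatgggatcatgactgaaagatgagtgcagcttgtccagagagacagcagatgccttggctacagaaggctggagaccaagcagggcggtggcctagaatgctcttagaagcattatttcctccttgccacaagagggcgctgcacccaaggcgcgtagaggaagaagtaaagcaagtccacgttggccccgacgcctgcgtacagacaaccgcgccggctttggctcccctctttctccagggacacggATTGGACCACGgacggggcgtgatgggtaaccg

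Mogs, chr6:83115256-83115555, plus strand: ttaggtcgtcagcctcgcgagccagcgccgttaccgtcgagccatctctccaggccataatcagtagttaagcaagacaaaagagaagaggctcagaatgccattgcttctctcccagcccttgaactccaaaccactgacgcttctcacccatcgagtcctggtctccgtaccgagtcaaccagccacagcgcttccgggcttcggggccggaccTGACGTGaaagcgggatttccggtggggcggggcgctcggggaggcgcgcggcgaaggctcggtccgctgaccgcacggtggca

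Srpr, chr9:35210953-35211252, plus strand: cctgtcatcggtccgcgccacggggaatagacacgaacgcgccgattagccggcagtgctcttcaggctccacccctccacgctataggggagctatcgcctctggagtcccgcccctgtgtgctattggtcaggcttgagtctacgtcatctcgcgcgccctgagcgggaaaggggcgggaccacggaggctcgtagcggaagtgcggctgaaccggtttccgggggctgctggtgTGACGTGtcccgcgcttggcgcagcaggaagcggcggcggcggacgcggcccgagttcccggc

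The match in Krtcap2 lies just after the annotated start, those in Mogs and Srpr 27 and 6 bases before it. The log2 ratios of these genes were 0.58, 0.51 and 0.43. Genes with the highest ratios for which a window was at hand, Surf4 and Ost4 among them, held none of the 3 sets of letters, and a match or its absence is a description of the window alone.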

How the data were processed

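RNA of sorted GMPs was sequenced as 1 library from NTB mice and 1 from 4T1-bearing mice. Per the labels, the authors used CASAVA 1.8.2, cutadapt 1.2.1, TopHat2 2.0.13, Picard 1.97, HTSeq 0.6.1 and edgeR 3.12.1 with the build mm10, and deposited RPKM, 1 value per gene symbol; the annotation and strand setting are not given in the sources used here. The RPKM were divided by 10180365.24 and 30016262.80, recovered from the values. These are not whole numbers, so they may include a normalization factor. That of 4T1-GMP was 2.95 times as large, while all recovered reads were 9486697 in NTB-GMP and 26353075 in 4T1-GMP.

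Whole reads were recovered for 14833 of 14833 symbols above 0 (relative tolerance 1e-10). They are lower bounds where reads and length share a factor (likely in Srp19, Srpr and Krtcap2), and the interval is then too wide. On simulated data for this comparison (10377 genes), 100% of read ratios and 84.4% of both counts were exact. The 40 genes had from 172 to 5479 reads in NTB-GMP and from 803 to 22822 in 4T1-GMP. Differences are log2(RPKM + 0.1) ratios over genes averaging 1 RPKM or more. A fold of 1.5 was a call. No test was possible with 1 library a group. Genes and lists were chosen with earlier results of these data known. All 40 genes are named, and of each other list up to 3 genes at either end. The markers and the paralogs of named genes are the exceptions. Coordinates are of GENCODE M21 (GRCm38). Exons of 9 of the 40 genes overlap another protein-coding gene there (Surf4, Rpn2, Krtcap2, Ost4, Sec11a, Spcs3, Srpr, Srprb and Spcs1), so their reads are uncertain without strand. For Sec11a and Srprb the other gene lies on the same strand, so strand would not settle their reads. The list symbol Camlg was read as Caml and Igj as Jchain. Computations used Python 3.11.15, numpy 2.4.6, pandas 2.3.3 and scipy 1.17.1.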

Additional observations from a re-analysis of the deposited data

How the results depend on the processing

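For the 40 genes, pseudocounts of 1 and 0.01, all genes above 0 and a minimum mean of 5 RPKM left the number of called genes at 12 and the share higher at 97.5%. The last 2 settings could not change these values and the pseudocounts could hardly do so, as the lowest mean of the 40 genes was 17.1 RPKM. With the median of tested genes at 0, 10 genes were called (25%, beside 8.35% of all tested genes), and with equal upper quartiles 8 (20%, beside 8%). Library sizes without Rn45s gave 4 called genes and medians of 0.33 for all 40 genes, 0.17 for SRP, 0.37 for SEC61 and partners, 0.34 for signal peptidase, 0.23 for OST, 0.16 for glucosidases and UGGT1 and 0.38 for cargo and KDEL receptors, which follows from the common shift. Quantile normalization gave 2 called genes (5%, below the 9.48% of all tested genes) and, in the same order, 0.27, 0.19, 0.29, 0.29, 0.22, 0.084 and 0.39; the cause was not tested. The median of the 40 genes was 0.44 with the median of tested genes at 0 and 0.43 with equal upper quartiles, where OST was at 0.33 and glucosidases and UGGT1 at 0.26. It lay 0.44 above that of all tested genes as reported and 0.26 above after quantile normalization. A call at a log2 ratio of 0.32 took in 31 genes and a fold of 2 took in 1 (2.5%), beside 25.2% and 3.25% of all tested genes. Of 320 values of single genes, 226 lay inside the counting interval, 90 lay outside it with the same sign and 4 changed sign: Ganab to -0.0028 and Prkcsh to -0.025 without Rn45s, and to -0.10 and -0.12 after quantile normalization. The 226 include all values of the pseudocount settings and of the 2 choices of tested genes, which could hardly move or could not move a ratio. All values outside the interval or of changed sign came from the settings that rescale the libraries. Transcript-length classes, the level-matched background and 9 of the 16 pairs were chosen after seeing the data. No paired analysis was possible because NTB-GMP and 4T1-GMP were single libraries, and neither could be left out. Srp19 and Krtcap2 had the fewest recovered reads in NTB-GMP and the widest intervals. Their recovered reads are likely lower bounds, so how far depth limits these genes cannot be told.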
